A study of Homo sapiens with 18 samples.

Results

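AP-1 is a family of dimeric transcription factors, and the 8 genes described here were *FOS*, *FOSB*, *FOSL1*, *FOSL2*, *JUN*, *JUNB*, *JUND* and *ATF3*, chosen by name out of 38716 gene symbols in the deposited tables. Each AP-1 protein carries a basic region that contacts DNA and a leucine zipper through which it pairs with a partner. JUN proteins pair with each other or with FOS proteins, whereas FOS proteins need a JUN partner, and ATF3 pairs with JUN proteins or with itself. Growth factors, stress and inflammatory signals act on these genes largely through MAP kinases, and AP-1 is known for its role at the enhancers of senescent fibroblasts.

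The cells were IMR90, primary fibroblasts from human fetal lung. Young cells were low-passage and proliferating, old cells were high-passage and in replicative senescence (RS), and ICM cells were low-passage cells kept for several days in inflachromene, which binds HMGB1 and HMGB2. Each condition had 3 cultures, and each culture gave an mRNA-seq and a Ribo-seq library, 18 in all. The series' design text counts 4 young, 4 old and 2 ICM samples for these assays, whereas the labels of the libraries analysed here give 3 of each. Ribo-seq sequences the mRNA fragments (footprints) that ribosomes cover. According to the methods, each lysate was made in a cycloheximide buffer and shared between the assays, with poly(A) selection for mRNA, whereas the GEO labels describe a Trizol lysis. All cultures share the IMR90 line, so that the p-values below cover differences between cultures and not between donors. In bulk samples, fewer expressing cells and less RNA per cell cannot be told apart.

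The mRNA-seq libraries held 7902301 to 14144345 reads in 5′ UTR, CDS and 3′ UTR, of which 4530 to 9487 lay in AP-1 genes. The Ribo-seq libraries held 46170 to 1718431 CDS reads, of which 20 to 850 lay in AP-1 genes. All 10 fibroblast markers were present, although their summed mRNA ran from 12300 to 12800 CPM (counts scaled to library size) in ICM against 29000 to 32800 in young and 27400 to 30700 in old libraries. All 5 epithelial markers averaged under 1 CPM. Summed leukocyte markers ran from 19.5 to 21.6 CPM in young, 32.4 to 35.6 in old and 53.9 to 66.1 in ICM libraries. Of these 4 markers, 3 averaged under 1 CPM and 1 of those was at 0 throughout, so that the sum came mostly from a single marker. The 4 endothelial markers summed to 55.3 to 63.6, 94.7 to 107 and 51.8 to 60.3, with 2 under 1 CPM on average, 1 of them at 0. The part of these differences in the AP-1 values was not tested. Among Ribo-seq libraries, ICM replicate 3 stood apart. The 31 tested genes with the strongest ICM rise in mRNA (log2 change over 3) took 11200 CPM of footprints there against 17200 and 16300 in the other ICM libraries. The 74 genes with the strongest ICM fall took 8680 there against 2670 and 3410. Both gene sets were chosen by their mRNA change, so that footprint fits without ICM replicate 3 are not independent of the mRNA. Young replicate 1 and old replicate 2 had the lowest share of Ribo-seq reads in the CDS, and the footprint calls are given below with and without these libraries.

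In mRNA-seq, all 8 genes passed the filter on low counts and were tested with edgeR's quasi-likelihood test on 13173 genes, with Benjamini-Hochberg adjustment and a call at an adjusted p under 0.05. Between old and young cells, *ATF3*, *FOSB*, *JUN* and *JUNB* rose and *FOSL2* fell. Thus 4 of 8 genes were called higher, beside 32.4% of all genes tested, and 1 of 8 was called lower, beside 33.7%. Between ICM and young cells, *ATF3*, *FOSB* and *JUN* rose while *JUNB*, *FOSL2* and *JUND* fell. These were 3 of 8 higher, beside 34.9% of all genes, and 3 of 8 lower, beside 36.1%. Between ICM and old cells, *ATF3*, *JUN* and *FOSL2* were higher and *JUNB* was lower, 3 of 8 beside 30.7% and 1 of 8 beside 32.6%. With 8 members and so many of all genes called, nothing is read from these counts, and the members are described singly below. The comparisons with young share their 3 young libraries.

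**Figure D1:**
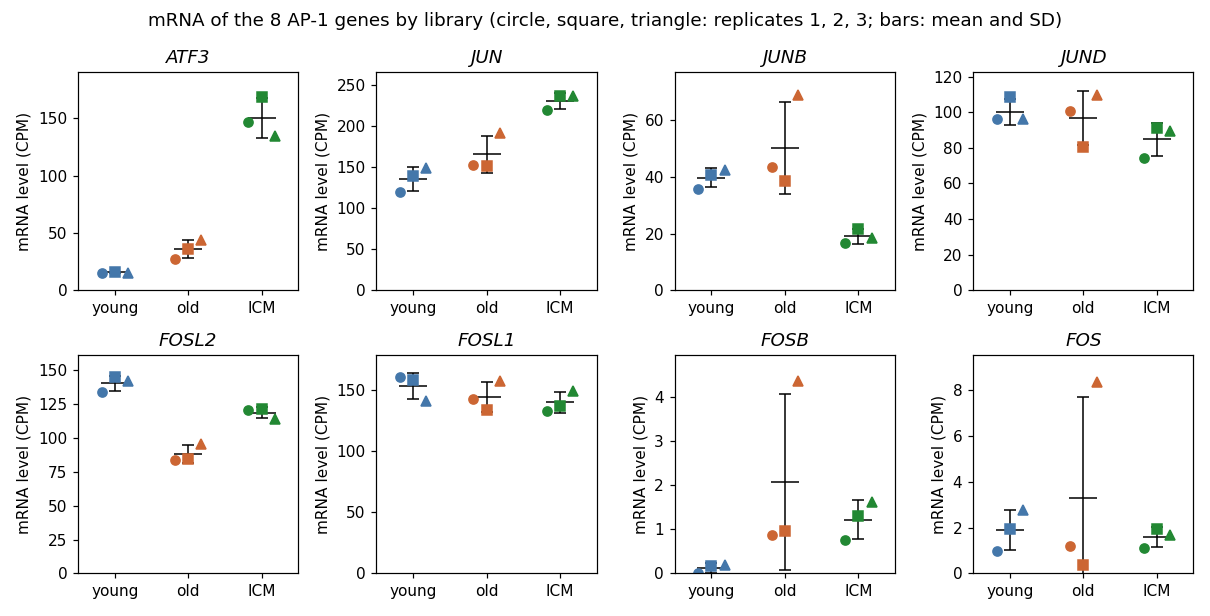
mRNA level of each AP-1 gene (vertical axis, CPM on the TMM-scaled library) in the young, old and ICM libraries, with replicates 1, 2 and 3 as circles, squares and triangles and the mean and SD as black bars. *ATF3* stepped from about 15.5 in young to 35.8 in old and 150.2 in ICM, *JUNB* was lowest in ICM, *FOSL2* was lowest in old, and old replicate 3 was the high point for *FOSB* and *FOS*.

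*ATF3*, a stress-induced member that as a homodimer mostly represses transcription, had the largest change among the genes above a few CPM. The gene lies on chromosome 1 (GRCh37 chr1:212738676-212794119, plus strand), and a pseudogene, *RN7SL512P*, overlaps it on the opposite strand. Its mRNA stood at 15.3, 15.9 and 15.3 CPM in young replicates 1 to 3. In old cells the values were 27.6, 36.2 and 43.5, and in ICM cells 147, 169 and 135. No library of one condition overlapped another, and the order was young, old, ICM.

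The *ATF3* means were 15.5 ± 0.353 in young, 35.8 ± 7.93 in old and 150.2 ± 17.3 CPM in ICM (SD, n = 3). This was 2.32-fold higher in old than in young cells (log2 change 1.22, SE 0.13, edgeR adjusted p = 4.11e-08). With ICM it was 9.69-fold higher than in young cells (log2 change 3.28 ± 0.12, edgeR adjusted p = 1.55e-16). ICM exceeded old 4.17-fold (log2 change 2.06 ± 0.10, edgeR adjusted p = 8.38e-14). Both changes from young thus had the same sign, and their sizes differed beyond the replicate spread.

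*JUN*, the prototypical AP-1 subunit and a strong activator, is a gene of 1 exon (GRCh37 chr1:59242517-59249720, minus strand). Young libraries held 120, 139 and 148 CPM, old libraries 153, 151 and 192, and ICM libraries 219, 236 and 236. Again the conditions did not overlap and followed the order young, old, ICM, although the lowest old libraries lay close to the highest young library. In old cells *JUN* was 1.21-fold higher than in young cells (log2 change 0.28 ± 0.09, edgeR adjusted p = 0.00662). This call was lost without old replicate 3 (log2 change 0.16, edgeR adjusted p = 0.0669) and with CDS reads only (edgeR adjusted p = 0.0586). In ICM cells *JUN* was 1.69-fold higher than in young (log2 change 0.76 ± 0.09, edgeR adjusted p = 4.57e-08) and 1.4-fold higher than in old cells (log2 change 0.48 ± 0.08, edgeR adjusted p = 3.31e-05).

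*JUN* and *ATF3* each held the letters TGACATCA in a RefSeq promoter window (250 bases before to 50 after a start, GRCh38.p14, both strands searched). *FOSB*, which like *JUN* and *ATF3* was called higher in old and ICM cells, did not hold them. These letters resemble the cyclic AMP response element TGACGTCA and are known from the *JUN* promoter. They occurred in 2.61% of 35116 promoters. In *JUN* they began 67 bases upstream of the start. In *ATF3* they began 123 bases upstream of the more distal of the RefSeq starts, which lies 43354 bases from the start of the MANE transcript. The 30 bases around each match are shown with the match in capitals, each found at a single place in GRCh37, on the minus strand at chr1:59249768-59249797 for *JUN* and on the plus strand at chr1:212738615-212738644 for *ATF3*.
JUN: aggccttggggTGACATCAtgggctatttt
ATF3: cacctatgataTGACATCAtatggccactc

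Of the other members, *JUND* held TGACGTCA, present in 1.85% of promoters, beginning 200 bases upstream of its start (GRCh37 chr19:18392614-18392643, minus strand). *FOSL2* held TGACTCA, a form of the AP-1 site TGANTCA that was present in 7.71% of promoters, beginning 4 bases past its start (GRCh37 chr2:28615717-28615746, plus strand). These were the only other matches found in the windows of members, and no link between a site and a change in mRNA was tested. The CArG box, which serum response factor binds, was in 1.29% of promoters and in none of the 8 windows found for 7 of the genes.
JUND: ggccgcccccaTGACGTCAacccacaaggc
FOSL2: gtgccattgtagTGACTCAtctcgggcaga

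*JUNB*, a weaker activator that can oppose JUN at shared sites, moved opposite to *JUN* in ICM cells. This single-exon gene lies at GRCh37 chr19:12902300-12904129 on the plus strand, with *HOOK2* overlapping on the other strand. It held 35.9, 40.8 and 42.3 CPM in young, 43.7, 38.5 and 68.8 in old, and 16.8, 21.7 and 18.3 in ICM libraries. Every ICM library lay below every other library, while young and old libraries overlapped. *JUNB* was 2.11-fold lower in ICM than in young cells (log2 change -1.08 ± 0.16, edgeR adjusted p = 2.86e-06) and 2.66-fold lower than in old cells (log2 change -1.41 ± 0.15, edgeR adjusted p = 4.63e-08). Its rise in old cells was small (log2 change 0.33 ± 0.14, edgeR adjusted p = 0.047). It rested on old replicate 3, without which the log2 change was 0.04 (edgeR adjusted p = 0.753), and the call was also lost without young replicate 1, 2 or 3 (edgeR adjusted p = 0.134, 0.0769 and 0.051) and with DESeq2 (adjusted p = 0.197).

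*JUND*, the JUN protein most often linked to quiescence, is a single-exon gene (GRCh37 chr19:18390504-18392432, minus strand). Its mRNA was at 96.1, 109 and 95.9 CPM in young, 100.4, 80.2 and 110 in old, and 74.2, 91.0 and 89.3 in ICM libraries. Young and ICM libraries did not overlap, and old libraries spanned both. The fall in ICM cells was 1.18-fold (log2 change -0.24 ± 0.10, edgeR adjusted p = 0.0259), and it was not called without young replicate 2 (edgeR adjusted p = 0.142), without ICM replicate 1 (0.187) or with CDS reads only (0.0755). In old cells the log2 change was -0.06 ± 0.09 (edgeR adjusted p = 0.605, 95% interval -0.24 to 0.13). In ICM replicate 3, 143 of 1053 *JUND* mRNA reads (13.6%, exact 95% interval 11.6% to 15.8%) lay in the 5′ UTR, against 3.3% to 5.17% in the other 8 libraries.

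*FOSL2* (FRA-2), a FOS protein without a strong activation domain, was the member that fell in both conditions. The gene lies at GRCh37 chr2:28615315-28640184 on the plus strand and is overlapped by the antisense gene *FOSL2-AS1*. It held 134, 145 and 142 CPM in young, 84.0, 84.1 and 95.5 in old, and 120, 121 and 114 in ICM libraries. The conditions did not overlap, with old lowest and ICM between old and young. *FOSL2* was 1.6-fold lower in old than in young cells (log2 change -0.68 ± 0.07, edgeR adjusted p = 7.24e-09) and 1.19-fold lower in ICM than in young cells (log2 change -0.25 ± 0.06, edgeR adjusted p = 0.00178). ICM exceeded old 1.35-fold (log2 change 0.43 ± 0.07, edgeR adjusted p = 6.27e-06).

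*FOSL1* (FRA-1), which is prominent in fibroblasts and invasive cells, passed the test in no comparison of all libraries. Its gene lies at GRCh37 chr11:65659520-65668044 on the minus strand. The libraries ran from 141 to 160 CPM in young, 133 to 157 in old and 133 to 150 in ICM cells, so that all 3 conditions overlapped. The log2 change from young was -0.08 in old (95% interval -0.23 to 0.06, edgeR adjusted p = 0.319) and -0.13 in ICM cells (95% interval -0.27 to 0.01, edgeR adjusted p = 0.114). Without young replicate 3, the latter became -0.19 and passed the threshold (edgeR adjusted p = 0.0327).

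*FOS* and *FOSB*, the classical immediate early members whose mRNAs appear within minutes of a stimulus and decay quickly, were at the lower limit of the data. *FOS* (GRCh37 chr14:75745529-75748933, plus strand) gave 8, 22 and 29 reads in the young mRNA libraries, 11, 5 and 90 in the old and 15, 21 and 20 in the ICM libraries. Old replicate 3 was far above the other old libraries, and all conditions overlapped. The *FOS* log2 change in old cells was 0.70 (edgeR adjusted p = 0.326), and 1 library decided its sign. It was called lower without old replicate 3 (log2 change -1.46, edgeR adjusted p = 0.00599) and higher without old replicate 2 (log2 change 1.34, edgeR adjusted p = 0.0161). ICM vs old turned likewise, from -1.02 (edgeR adjusted p = 0.154) to 1.13 without old replicate 3 (edgeR adjusted p = 0.0337) and to -1.67 without old replicate 2 (edgeR adjusted p = 0.00424). No direction is read for *FOS* in old cells. The log2 change in ICM vs young cells was -0.33 (edgeR adjusted p = 0.691).

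*FOSB* (GRCh37 chr19:45971253-45978437, plus strand, overlapped by *ERCC1* on the other strand) gave 0, 2 and 2 reads in young, 8, 13 and 47 in old and 10, 14 and 19 in ICM libraries. Every old and ICM library lay above every young library, and old and ICM libraries overlapped. *FOSB* was called higher in old (log2 change 3.82 ± 0.80, edgeR adjusted p = 0.000224) and in ICM cells (log2 change 3.07 ± 0.89, edgeR adjusted p = 0.00419). *FOSB* met the filter on low counts only through old and ICM libraries, where it was high, so that these calls are not independent of the filter. With 4 young reads in all, the size of this change is poorly set, and without old replicate 3 the log2 change in old cells was 2.69. No test separated ICM from old (log2 change -0.76, edgeR adjusted p = 0.159), although without old replicate 2 it was -1.18 (edgeR adjusted p = 0.0249).

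**Figure D2:**
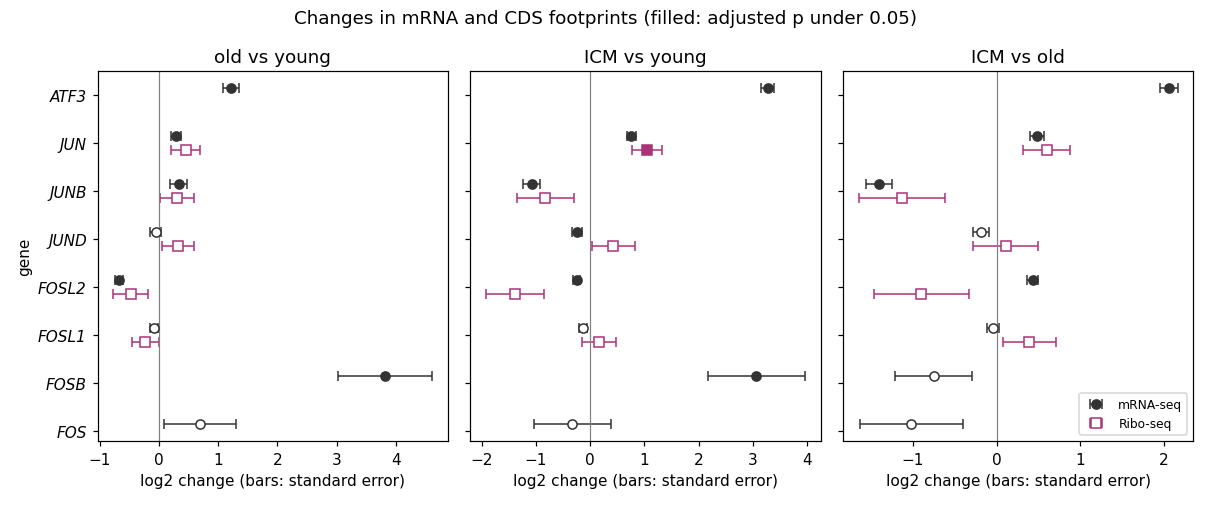
log2 change (horizontal axis, with standard errors) of each AP-1 gene in mRNA-seq (circles) and in CDS footprints (squares) for old vs young, ICM vs young and ICM vs old, with filled symbols for an adjusted p under 0.05. *ATF3* mRNA lay at 1.22, 3.28 and 2.06, and *JUN* was the only footprint change called. *ATF3*, *FOSB* and *FOS* have no square because they were under the Ribo-seq filter.

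Levels of different genes were compared as CPM of CDS reads per kilobase of CDS in mRNA-seq. In young cells *FOSL1* led at 104 ± 10.3, followed by *JUN* at 68.8 ± 5.45 and *JUND* at 66 ± 4 (SD, n = 3). *JUN* and *JUND* did not differ beyond their spread. *FOSL2* at 36.3 ± 1.18, *JUNB* at 25.3 ± 2.67 and *ATF3* at 10.3 ± 1.16 came next, and *FOS* and *FOSB* stayed under 1.

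In old cells the order was the same at the top, with *FOSL1* at 96.8 ± 10.1, *JUN* at 78.7 ± 10.2 and *JUND* at 65.2 ± 10.6 CPM of CDS reads per kilobase. *JUNB* at 30.9 ± 9.74, *ATF3* at 24.1 ± 2.93 and *FOSL2* at 21.1 ± 1.94 then lay within each other's spread. In ICM cells *JUN* led by mean at 110 ± 6.28, *ATF3* followed at 98.6 ± 7.07 and *FOSL1* stood at 92.4 ± 4.46. *JUN* and *ATF3* lay within each other's spread (lowest *JUN* library 103, highest *ATF3* library 104), as did *ATF3* and *FOSL1*. By mean, *ATF3* thus moved from place 6 in young cells to place 2, and *JUNB* to place 6 at 11.6 ± 1.33.

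Summed on this scale, the 3 JUN genes gave 160 ± 11.9 in young, 175 ± 28.1 in old and 177 ± 12.4 in ICM cells. The 4 FOS genes gave 141 ± 9.16, 121 ± 14 and 120 ± 2.35. Both sums differed less between conditions than *ATF3*, *JUN* or *JUNB* did singly. *ATF3* made up 3.32% ± 0.399 of the total of all 8 genes in young cells, 7.56% ± 0.641 in old cells and 24.9% ± 1.81 after ICM, as the stacked levels by library show.

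**Figure D3:**
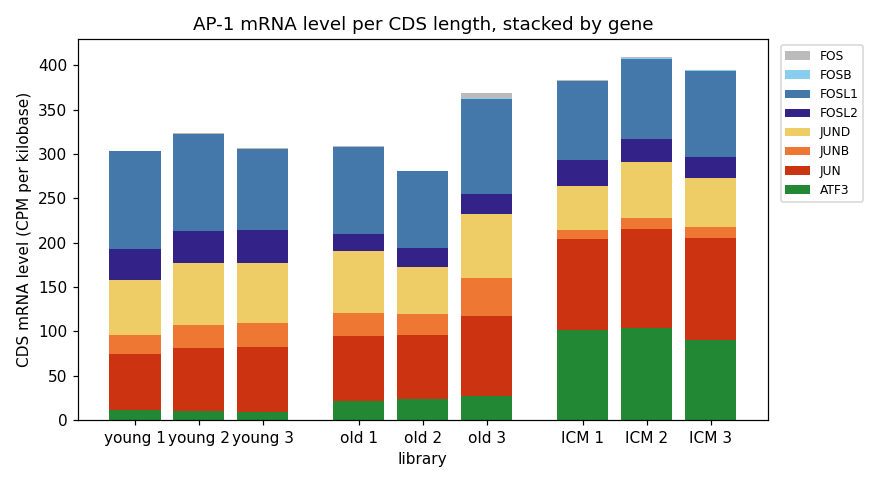
mRNA level per CDS length (vertical axis, CPM of CDS reads per kilobase) of the 8 AP-1 genes, stacked for each of the 9 mRNA-seq libraries. The green *ATF3* part lay between 9.08 and 11.4 in young, 21.7 and 27.3 in old, and 90.5 and 104 in ICM libraries, while the 3 JUN genes together averaged 160, 175 and 177.

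Ribo-seq asked whether the changes in mRNA reached the ribosome. Only *FOSL1*, *FOSL2*, *JUN*, *JUNB* and *JUND* passed the filter, so that 5 of 8 members were tested among 4643 genes. *JUN* was called higher in ICM than in young cells, 1 of 5 beside 13.7% of all genes tested, and no member was called lower, beside 12.9%, with *FOSL2* lower at an unadjusted p under 0.05. In old vs young cells edgeR called none, beside 19.3% of genes higher and 17% lower, and no member had an unadjusted p under 0.05. In ICM vs old cells edgeR again called none, beside 5.79% higher and 7.62% lower, while 2 members, *JUN* and *JUNB*, had an unadjusted p under 0.05. DESeq2 called 0 members in all 3 comparisons. At this depth such counts say little about the members that were not called.

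*JUN* took 218, 176 and 165 CPM of CDS footprints in young, 230, 382 and 214 in old, and 374, 518 and 68.5 in ICM libraries. The value of 68.5 in ICM replicate 3 rested on 3 reads and was the lowest of all, so that the conditions overlapped. *JUN* footprints were 2.07-fold higher in ICM than in young cells (log2 change 1.05 ± 0.28, edgeR adjusted p = 0.00518), beside a log2 change of 0.76 in mRNA. The call held without ICM replicate 3, without young replicate 1 and old replicate 2 together (log2 change 0.96, edgeR adjusted p = 0.00254) and without all 3 of these libraries (log2 change 1.22, edgeR adjusted p = 9.82e-05). It was lost with DESeq2 (adjusted p = 0.107) and without young replicate 2, young replicate 3 or ICM replicate 1 (edgeR adjusted p = 0.0866, 0.131 and 0.0798). A block for the replicate number also ended it (log2 change 0.88, edgeR adjusted p = 0.068). In old cells the log2 change was 0.45 (95% interval -0.02 to 0.92, edgeR adjusted p = 0.142). ICM vs old was called without the 3 libraries (log2 change 0.80, edgeR adjusted p = 0.0128) and not without young replicate 1 and old replicate 2 alone (log2 change 0.53, edgeR adjusted p = 0.185).

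*ATF3* was under the filter, with 2, 9 and 11 CDS footprints in young, 33, 2 and 14 in old, and 26, 10 and 1 in ICM libraries. Pooled over the libraries of a condition, this was 8.95 CPM of all CDS reads in young (exact Poisson 95% interval 5.61 to 13.6), 21.2 in old (15.7 to 28.0) and 106 in ICM cells (74.4 to 146). The intervals, which cover counting error only, did not overlap, and the order was that of the mRNA. By library, ICM replicates 1 and 2 stood at 128 and 136 CPM, above all others, whereas ICM replicate 3 stood at 22.8 from 1 read, within the range of the young libraries and below the old ones.

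When no filter was applied, *ATF3* footprints were called higher in ICM than in young cells (log2 change 3.23 ± 0.53, edgeR adjusted p = 9.94e-08) and than in old cells (log2 change 1.91 ± 0.47, edgeR adjusted p = 0.00208). Old vs young missed the threshold (log2 change 1.31 ± 0.50, edgeR adjusted p = 0.0564), and passed with only the compared groups (edgeR adjusted p = 0.00521). Without ICM replicate 3, *ATF3* passed the filter and the log2 change in ICM from young was 3.57 ± 0.52 (edgeR adjusted p = 4.05e-08). With any 1 lysate left out, *ATF3* passed the filter and ICM vs young was called, with 0.0447 as the largest edgeR adjusted p. The filter asks for as many libraries as the smallest group holds, so that leaving 1 out also loosened it. Passing it in these fits therefore adds no support. *ATF3* met it most easily through ICM replicates 1 and 2, where it was highest (128 and 136 CPM). The calls in these fits are thus not independent of the filter. The ICM vs old call was lost without young replicate 2, old replicate 1, old replicate 3 or ICM replicate 1 (edgeR adjusted p = 0.0845, 0.246, 0.158 and 0.138). Old vs young was called in some of these fits and not in others, with edgeR adjusted p from 0.0236 to 0.736.

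*JUNB* took 19.7 and 27.3 CPM of footprints in ICM replicates 1 and 2 and 137 in ICM replicate 3, each from 6 reads or fewer. Young libraries ran from 64.3 to 119 and old libraries from 78.2 to 121. ICM replicates 1 and 2 were thus the lowest of all, and ICM replicate 3 was the highest. The log2 change in ICM was -0.83 from young (edgeR adjusted p = 0.262) and -1.13 from old cells (edgeR adjusted p = 0.154). Without ICM replicate 3 it was -1.72 (edgeR adjusted p = 0.0238) and -2.04 (edgeR adjusted p = 0.0083), both of which passed the threshold. Without young replicate 1 and old replicate 2 as well, the log2 changes were -1.68 and -2.02 (edgeR adjusted p = 0.0346 and 0.0148), whereas without that pair alone neither was called (edgeR adjusted p = 0.248 and 0.116).

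*FOSL2* took 99.0, 60.7 and 78.9 CPM of footprints in young and 56.9, 40.2 and 45.2 in old libraries, and its ICM libraries gave 34.5, 27.3 and 0. The conditions did not overlap, but the ICM values rested on 7, 2 and 0 CDS reads. In ICM replicate 2, 7 of 9 *FOSL2* footprints lay in the 5′ UTR (77.8%, exact 95% interval 40% to 97.2%), against 0 of 7 in ICM replicate 1. Pooled over the young libraries this share was 7.69%. Its part in the CDS values was not tested. The log2 change of -1.38 ± 0.54 in ICM vs young cells missed the threshold (edgeR adjusted p = 0.0517), and it passed with RLE scaling or without the filter (edgeR adjusted p = 0.0478 in each). It missed the threshold without young replicate 1 and old replicate 2 (edgeR adjusted p = 0.0529) and without these and ICM replicate 3 (edgeR adjusted p = 0.0874). *FOSL1* and *JUND* overlapped among all conditions, with log2 changes in ICM of 0.16 (95% interval -0.44 to 0.76, edgeR adjusted p = 0.737) and 0.42 (95% interval -0.35 to 1.2, edgeR adjusted p = 0.461). *FOS* gave 4, 5 and 0 pooled CDS footprints in young, old and ICM cells, and *FOSB* gave 0, 1 and 0. The 0 reads in ICM allow up to 8.57 CPM (3 reads).

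**Figure D4:**
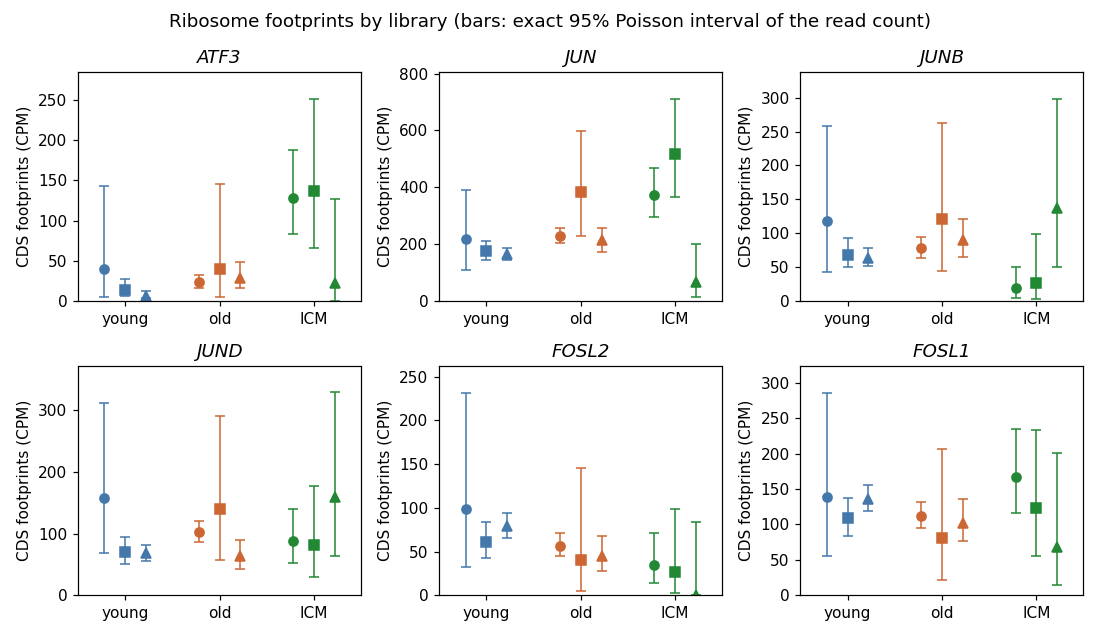
CDS footprint level (vertical axis, CPM) of 6 AP-1 genes in each Ribo-seq library, by condition, with exact 95% Poisson intervals and replicates 1, 2 and 3 as circles, squares and triangles. In *JUN*, *ATF3* and *JUNB*, ICM replicates 1 and 2 lay together (374 and 518, 128 and 136, 19.7 and 27.3) and ICM replicate 3 apart at 68.5, 22.8 and 137.

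Translational efficiency, the footprint level relative to the mRNA level, was tested as an interaction of assay and condition with the lysate as a block. The test found no changed member in any comparison. These were 0 of 5 in ICM vs young, beside 2.38% of 4618 genes, 0 of 5 in old vs young, beside 1.43%, and 0 of 5 in ICM vs old, beside 0.346%. At an unadjusted p under 0.05 there were 1, 0 and 1, *FOSL2* in both cases, and DESeq2 called 0 in each. *FOSL2* had a log2 change of -1.13 in ICM vs young (95% interval -2.2 to -0.07, edgeR adjusted p = 0.303) and of -1.35 in ICM vs old cells (95% interval -2.42 to -0.28, edgeR adjusted p = 0.334). For *JUN* the log2 change in efficiency was 0.36 (95% interval -0.24 to 0.96) in ICM and 0.23 (95% interval -0.3 to 0.75) in old cells, and for *JUNB* it was 0.35 (95% interval -0.85 to 1.56) and -0.02 (95% interval -0.67 to 0.63). These intervals are wide enough to hold changes as large as those of the mRNA.

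The *JUN* transcript has a long 5′ UTR, of 977 bases beside a CDS of 996 bases in the MANE transcript. In mRNA-seq the 5′ UTR held 33.3% to 40.5% of *JUN* reads in every library, with means of 35.9% in young, 38.5% in old and 37.9% in ICM cells. In Ribo-seq it held 6 of 18 footprints (33.3%), 17 of 132 (12.9%) and 41 of 302 (13.6%) in young libraries. Old libraries had 17 of 344 (4.94%), 0 of 19 and 2 of 110 (1.82%), and ICM libraries had 3 of 79 (3.80%), 0 of 38 and 0 of 3. Every young library lay above every old and ICM library.

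Pooled, 14.2% of the *JUN* footprints of young cells lay in the 5′ UTR, against 4.02% in old and 2.5% in ICM cells. Of 943 genes with at least 10 footprints in each young and old library, 14.4% had a higher share in every young than in every old library, so that *JUN* shares this with many genes. The reverse held for 5 genes against 136, so that separations among these genes mostly had the direction of *JUN*. Summed over all genes, the share did not follow this order, at 10.2%, 3.70% and 2.78% in young and 4.89%, 44.7% and 13.8% in old libraries. Whether the library differences contribute to the *JUN* values was not tested.

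**Figure D5:**
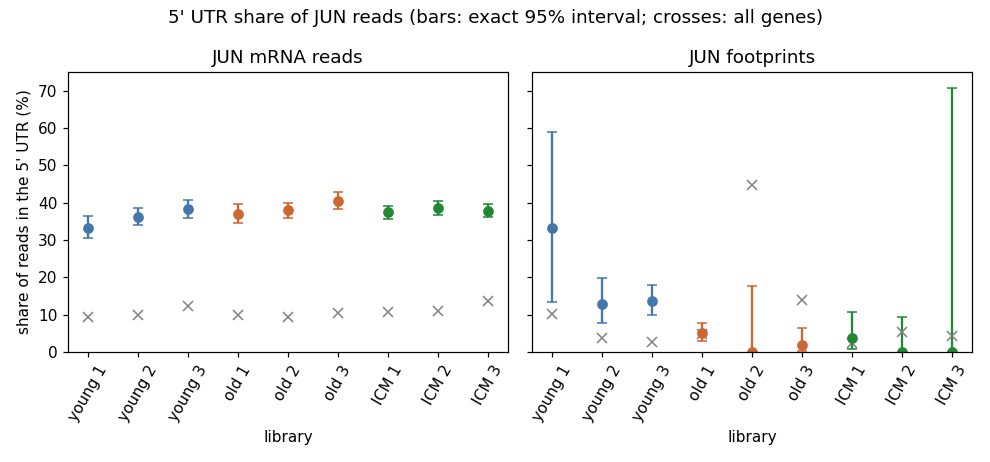
Share of *JUN* reads in the 5′ UTR (vertical axis, percent) in each library for mRNA-seq (left) and footprints (right), with exact 95% binomial intervals, and crosses for all genes. The mRNA shares stayed between 33.3% and 40.5%, whereas the footprint shares were 12.9% or more in young libraries and 4.94% or less in old and ICM libraries.

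Other early response genes, which like *FOS* are transcribed soon after a stimulus, moved both ways. Of 20 listed genes 19 were tested in mRNA-seq. In old vs young cells 8 rose and 4 fell, beside 32.4% and 33.7% of all genes tested, with a median log2 change of 0.06 against -0.01 over all genes. In ICM vs young cells 8 rose and 8 fell, beside 34.9% and 36.1% (median 0.02 against -0.01), and in ICM vs old cells 6 were higher and 10 lower, beside 30.7% and 32.6% (median -0.26 against -0.01). The same shares of all genes are the background for the other lists below. With about 2 in 3 of all genes called in a comparison, the counts describe the lists and nothing particular to them is read from the counts.

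*EGR1*, a zinc finger factor induced together with *FOS*, had the largest fall in all 3 comparisons among the called genes of the list that averaged at least 5 CPM over the 9 libraries, the limit for every ranking within a list given here. It went from 93.5 ± 18.7 CPM in young to 32.6 ± 13.1 in old and 8.39 ± 3.24 in ICM cells (log2 change -1.53 in old and -3.50 in ICM, edgeR adjusted p = 1.96e-07 and 3.4e-12). *DUSP1*, a phosphatase that inactivates JNK and p38, had the largest rise in ICM above this limit (92.0 to 216.9 CPM, log2 change 1.23, edgeR adjusted p = 1.12e-10). *SGK1*, a kinase downstream of PI3K, had the largest rise in old cells above this limit (log2 change 1.13, edgeR adjusted p = 1.98e-10). *ZFP36*, which promotes the decay of AU-rich mRNAs, had the largest excess in ICM over old above this limit (log2 change 0.58, edgeR adjusted p = 3.25e-05), while *NR4A3* and *NR4A2*, nuclear receptors under 5 CPM, had log2 changes of 1.88 and 1.23 (edgeR adjusted p = 1.1e-06 and 0.00624).

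Old replicate 3 was the highest old library for 15 of these 19 genes, as it was for *FOS*, *FOSB*, *JUN*, *JUNB*, *JUND*, *FOSL1*, *FOSL2* and *ATF3*. The share of all genes that were highest in old replicate 3 was not counted. Nothing particular to early response or AP-1 genes is therefore read from this. The 19 genes summed to 1192 CPM there against 992 and 983 in old replicates 1 and 2. Young libraries summed to 850 to 944 and ICM libraries to 888 to 944, so that old replicate 3 was above all of them.

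Among MAP kinase pathway genes, 28 of 30 listed were tested. In old vs young cells 17 rose and 5 fell (median log2 change 0.30 against -0.01 over all genes, beside 32.4% and 33.7% of all genes called higher and lower), in ICM vs young cells 14 rose and 5 fell (median 0.18, beside 34.9% and 36.1%), and in ICM vs old cells 6 were higher and 7 lower (median 0.01, beside 30.7% and 32.6%). Among genes averaging at least 5 CPM, the largest rises were in phosphatases that act on ERK. *DUSP6* rose in old cells (31.4 to 80.2 CPM, log2 change 1.35, edgeR adjusted p = 2.28e-11). *DUSP5* rose in ICM cells, from 57.8 ± 1.18 to 252.7 ± 5.75 CPM (log2 change 2.13, edgeR adjusted p = 4.9e-18), and was higher there than in old cells (log2 change 1.56, edgeR adjusted p = 7.66e-16). The largest falls above this limit were *DUSP16*, a JNK phosphatase, in old cells (log2 change -0.64, edgeR adjusted p = 5.99e-05) and *ELK3*, an ETS factor at serum response elements, in ICM cells (log2 change -0.95, edgeR adjusted p = 6.73e-11). *SPRY4*, an inhibitor of receptor tyrosine kinase signalling, was lowest in ICM relative to old above this limit (log2 change -1.33, edgeR adjusted p = 1.95e-12). Under 5 CPM, *MAP2K6*, a kinase that activates p38, fell in old cells (log2 change -2.65, edgeR adjusted p = 4.11e-09) and in ICM cells (log2 change -1.22, edgeR adjusted p = 9.16e-06), and *DUSP4*, an ERK phosphatase, rose in old cells (log2 change 2.29, edgeR adjusted p = 2.68e-07).

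Other bZIP proteins, several of which pair with JUN or FOS proteins, were also mixed. Of 16 listed genes 14 were tested. In old vs young cells 5 rose and 7 fell (median log2 change -0.40, beside 32.4% and 33.7% of all genes), in ICM vs young cells 4 rose and 5 fell (median 0.07, beside 34.9% and 36.1%), and in ICM vs old cells 6 were higher and 6 lower (median -0.08, beside 30.7% and 32.6%). *MAFK*, a small MAF protein, rose in old and ICM cells (log2 change 1.58 and 1.39, edgeR adjusted p = 1.8e-12 and 7.73e-12). *JDP2*, a repressor that pairs with JUN, fell from 60.4 ± 4.54 CPM in young to 39.4 ± 2.24 in old and 25.3 ± 1.78 in ICM cells, its ICM fall being the largest of the list among genes averaging at least 5 CPM (log2 change -1.25, edgeR adjusted p = 4.54e-12). *BATF3*, under 5 CPM, had a log2 change of -1.83 there (edgeR adjusted p = 1.17e-05). *CREB5*, which can pair with JUN, fell in old cells (log2 change -1.34, edgeR adjusted p = 2.17e-10) and was higher in ICM than in old cells (log2 change 1.51, edgeR adjusted p = 1.37e-11).

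Of 25 listed symbols of classical AP-1 target genes, 21 genes were tested. In old vs young cells 13 rose and 5 fell (median log2 change 0.59, beside 32.4% and 33.7% of all genes), whereas in ICM vs young cells 8 rose and 11 fell (median -0.40, beside 34.9% and 36.1%) and in ICM vs old cells 7 were higher and 11 lower (median -0.52, beside 30.7% and 32.6%). *MMP3*, the matrix metalloproteinase stromelysin, rose from 0.647 CPM in young to 5.38 in old and 161.8 ± 12.3 in ICM cells (log2 change 7.90 in ICM vs young, edgeR adjusted p = 8.47e-20). *CXCL8*, the chemokine interleukin 8, had the largest rise in old cells among genes averaging at least 5 CPM (log2 change 3.86, edgeR adjusted p = 5.25e-09). It rose by the same log2 change in ICM cells (3.86, edgeR adjusted p = 3.34e-09). Its mean was 1.23 ± 0.549 CPM in young, 17.1 ± 9.36 in old and 17.2 ± 0.949 in ICM cells. Above this limit the largest falls were *LIF*, a cytokine of the interleukin 6 family, in old cells (log2 change -1.71, edgeR adjusted p = 1.32e-14), and *EZR*, a membrane and actin linker, in ICM relative to young cells (log2 change -1.65, edgeR adjusted p = 1.54e-14). *VIM* is in this list and also among the fibroblast markers whose sum was lower in ICM cells.

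In footprints, fewer genes of these lists could be tested. In old vs young cells, where 19.3% of all genes tested were called higher and 17% lower, 4 of 6 early response genes, 3 of 12 MAP kinase pathway genes, 6 of 12 AP-1 targets and 1 of 3 other bZIP genes rose, and 1 other bZIP gene fell. In ICM vs young cells, beside 13.7% and 12.9% of all genes, 1 early response gene and 2 MAP kinase pathway genes rose, 4 AP-1 targets rose and 4 fell. In ICM vs old cells, beside 5.79% and 7.62%, 1 MAP kinase pathway gene was higher and 1 lower, and 2 AP-1 targets were higher and 7 lower. *DUSP1* is in both the early response and the MAP kinase list and was counted in each, here and in mRNA-seq. With so few genes tested per list, nothing particular to a list is read from these counts.

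The genes whose mRNA pattern over the 9 libraries came closest to a member were found by the root mean square difference of centred log2(CPM + 1) values, among about 10808 genes. *ATF3* was closest to *TM4SF1*, a tetraspanin-like surface protein (130.8, 337.4 and 1063 CPM in young, old and ICM, difference 0.206), and *SLC35E3* (0.263). *JUN* was closest to *RRBP1* (0.0592) and *IPP* (0.0748), *JUNB* to *SMTN*, a smooth muscle protein (0.172), and *COL4A2*, a basement membrane collagen (0.177), and *FOSL2* to *IPO9* (0.0493) and *PRPF8* (0.0561). For *FOSL1* these were *PI4KA* (0.0341) and *MRPL4* (0.0411), for *JUND* *ZNF865* (0.071) and *ZNF205* (0.0773), for *FOSB* *TRPM4* (0.339) and *TMEM184A* (0.341), and for *FOS* *PLEC* and *LOC107984638* (both 0.554). The distances of *FOS* and *FOSB* were the largest of the members, beside a spread over libraries with an SD of 0.775 and 0.736. The distance of *FOS* came nearest to its own spread, and no gene followed it closely.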

How the data were processed

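The 18 tables, deposited by the authors without scaling to depth, hold estimated counts per gene split into columns by part of the transcript, and 14.1% to 23.2% of non-zero values were not whole numbers. The submitters' processing notes name GRCh37, STAR 2.6.0c, featureCounts, DESeq2 and deepTools without roles. Strand use in counting is not given in the sources used here, so that reads of overlapping antisense genes cannot be told apart from those of *FOSB*, *FOSL2*, *JUNB* and *ATF3*. Condition and replicate came from sample titles.

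Values were rounded. CDS reads were used for Ribo-seq, and 5′ UTR, CDS and 3′ UTR reads were summed for mRNA-seq. edgeR 4.0.16 in R 4.3.3 (glmQLFit, TMM, filterByExpr) was fitted to the 9 libraries of an assay, and two-sided p-values were adjusted over all genes tested. Translational efficiency was fitted over 18 libraries with the lysate as a block, which rests on the methods; deviations of paired libraries correlated with r from -0.0711 to 0.119. SE came from the change and its F statistic. CPM use TMM-scaled library sizes, so that levels are relative within a library and a shift in total RNA per cell would not show. The tests were tried on simulated counts with known changes. CDS lengths are those of MANE transcripts in GENCODE (GRCh37), in place of the protein lengths first planned, and RefSeq promoters matched 7 of 8 members, without *FOSL1*. Named genes were every member and, per list and comparison, the called genes with the largest rise and fall among those with a mean of at least 5 CPM. 1 gene that this rule names is not reported here. *NR4A2*, *NR4A3*, *EGR2*, *EGR3*, *MAP2K6*, *DUSP4* and *BATF3* fall outside the rule and were chosen after their values were seen. Members and lists were chosen with earlier results of these data known. Alternatives were DESeq2 1.42.0, RLE scaling, no filter or a mean of at least 50 counts, an adjusted p under 0.15, only the compared groups, a replicate block, CDS reads in mRNA-seq, and leaving out libraries. Leaving out young replicate 1, old replicate 2 and ICM replicate 3 together was added after seeing the data. Intervals and limits cover counting error only.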

Additional observations from a re-analysis of the deposited data

Results flagged for a closer look

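For 4 members, the mRNA change from young cells differed between ICM and old cells in a test of the difference itself (edgeR, ICM vs old). The difference in log2 change was 2.06 for *ATF3*, 0.48 for *JUN*, 0.43 for *FOSL2* and -1.41 for *JUNB*. For *ATF3* and *JUN* the change was in the same direction in both conditions and larger in ICM cells. For *FOSL2* it was in the same direction and smaller in ICM cells. *JUNB* fell in ICM cells, while its small rise in old cells rested on old replicate 3.

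*ATF3* also had reads in a column for transcripts without UTR or CDS parts, which the comparisons did not use. In mRNA-seq these came to 76 reads over the ICM libraries, 42 over the old and 10 over the young libraries, in the same order as the reads counted for the gene.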

How the results depend on the processing

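Reads set the limits. *FOS* and *FOSB* changes rest on at most 90 mRNA reads per library, and ICM footprints on at most 76 reads per member and library. In mRNA-seq, the calls of *ATF3*, *FOSB* and *FOSL2* against young held under every alternative in which the gene was tested, as did the ICM calls of *JUN* and *JUNB* against young. *FOSB* met the filter on low counts only through its old and ICM libraries.

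For old vs young in mRNA-seq, 3 members were called with a mean of at least 50 counts, a filter that leaves out *FOSB*, and 2 with CDS reads only. In Ribo-seq, the counts for ICM vs young were 0 with DESeq2, 2 with RLE scaling, 3 without the filter, 2 at an adjusted p under 0.15, 2 without young replicate 1 and old replicate 2 (the pair), and 3 without these and ICM replicate 3. For old vs young they were 1 at 0.15, 2 with only the compared groups, and 1 without either set. For ICM vs old they were 1 without the filter, 1 without the pair and 3 without the 3 libraries. Translational efficiency gave 0 under every alternative.

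The replicate numbers do not pair the conditions (r from -0.0928 to 0.128 in mRNA-seq and 0.0021 to 0.0387 in Ribo-seq), and a replicate block gave 0 called members for ICM vs young in Ribo-seq.

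Leaving out 1 lysate, called members ranged in mRNA-seq from 5 to 7 (ICM vs young), 4 to 6 (old vs young) and 4 to 7 (ICM vs old), and in Ribo-seq from 1 to 3, 0 to 1 and 0 to 3.

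Among members, a change of sign reached the threshold only for *FOS* mRNA without old replicate 3 (old vs young -1.46, ICM vs old 1.13). The other changes of sign were in values that were not called. In Ribo-seq, the log2 change of *FOSL1* in ICM vs young was -0.037 without the filter and -0.026 with the replicate block, and *JUND* in ICM vs old was -0.088 without the filter and -0.14 without the 3 libraries. For translational efficiency, *JUN* was -0.018 in ICM vs young and -0.23 in ICM vs old with DESeq2, and -0.083 in ICM vs old without the filter. *JUNB* in old vs young was 5e-04 with only the compared groups, 0.0049 without the pair and 0.073 with CDS reads only, and without the 3 libraries it was -0.51 in ICM vs young and -0.50 in ICM vs old.

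Leaving out 1 lysate, the mRNA log2 change ranged for *FOS* from -0.57 to 0.025 (ICM vs young), -1.46 to 1.34 (old vs young) and -1.67 to 1.13 (ICM vs old), for *JUND* from -0.16 to 0.068 (old vs young), and for *FOSB* from -1.18 to 0.37 and *FOSL1* from -0.11 to 0.019 (both ICM vs old). The footprint log2 change ranged for *FOSL1* from -0.41 to 0.21 (ICM vs young) and -0.19 to 0.48 (ICM vs old), and for *JUND* from -0.04 to 0.47 (old vs young) and -0.17 to 0.39 (ICM vs old). For translational efficiency the ranges were -0.34 to 0.42 and -0.13 to 0.64 for *FOSL1* (ICM vs young, ICM vs old), -0.56 to 0.93 in both of these for *JUNB*, and -0.15 to 0.30 for *JUN* (ICM vs old), and in old vs young -0.16 to 0.31 for *FOSL2*, -0.26 to 0.16 for *JUNB* and -0.084 to 0.52 for *JUND*. The cause was not tested.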
